A study of Mus musculus with 27 samples.

Results

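The Msx1-side cushion mesenchyme of the E11.5 mouse heart was taken as the cells that pass a fixed series of UMI limits and hold more UMIs of Msx1, Car3 and Htra1 together than of Inhba, Stmn4 and Meox1 together. A UMI is 1 counted RNA molecule. Of 6032 barcodes, 317 met the rule, 146 of 2563 in the library labelled +/+ and 171 of 3469 in the library labelled F/F. Both libraries came from C57BL/6 embryos at E11.5: the +/+ embryos were wild type at Hand2as, the long non-coding RNA locus beside Hand2, and the F/F embryos were homozygous for its full-length knockout allele. For each genotype 6 hearts were dissociated with trypsin, dead cells were removed by a dye-based sort, and the cells were pooled into 1 droplet library, so there is 1 library per genotype and no replicate. Single-cell differences between the libraries therefore carry no test, and their exact 95% intervals cover counting error only. Whole hearts of the same strain and day, 3 F/+ (heterozygous for the same allele) and 3 F/F, were sequenced in bulk and give the one replicated measure.

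Cushion mesenchyme arises when endocardial cells of the atrioventricular canal and outflow tract leave the endothelium and enter the hyaluronan-rich jelly between endocardium and myocardium. Bone morphogenetic protein, transforming growth factor-beta, Notch and Wnt signals act in this transition, and the transcription factors Twist1, Snai1, Snai2, Msx1 and Sox9 are active in it. The cells later build the valves and septa of the heart, and the outflow cushions also receive cells from the neural crest.

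The class was defined by Msx1, a homeobox transcription factor, by Car3, a carbonic anhydrase, and by Htra1, a secreted serine protease. On GRCm38, Msx1 lies on chromosome 5 at 37820491 to 37824585, Car3 on chromosome 3 at 14863538 to 14872381, and Htra1 on chromosome 7 at 130936203 to 130985658. The sequences before a listed start of Msx1 and of Lef1 and Nkd1, the genes outside the rule discussed first among those high in the class, are shown as the 250 bases before that RefSeq start on GRCm38.p6. They lie at chr5:37824586-37824835 on the minus strand for Msx1, chr3:131110047-131110296 on the plus strand for Lef1 (the first of 4 listed starts) and chr8:88527383-88527632 on the plus strand for Nkd1. The Nkd1 window precedes the 1 start listed in the promoter table, but the Nkd1 gene is annotated from 88521342 to 88594887, so this window lies within the gene, whereas the other windows end where their genes begin. Capitals mark matches on either strand to CTTTGA (a TCF/LEF core), CAGATG (an E-box form) or CCAAT (the CCAAT box), which do not overlap one another here:
Msx1: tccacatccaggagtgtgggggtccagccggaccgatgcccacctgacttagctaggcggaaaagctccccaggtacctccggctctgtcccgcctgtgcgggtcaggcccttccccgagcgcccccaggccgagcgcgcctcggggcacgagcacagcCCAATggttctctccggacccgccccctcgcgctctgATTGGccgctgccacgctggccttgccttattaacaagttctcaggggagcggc
Lef1: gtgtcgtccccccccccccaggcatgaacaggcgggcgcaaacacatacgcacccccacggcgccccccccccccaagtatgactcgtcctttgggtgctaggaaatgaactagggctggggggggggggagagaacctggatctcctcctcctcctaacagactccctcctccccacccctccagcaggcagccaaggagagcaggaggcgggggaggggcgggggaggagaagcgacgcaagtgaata
Nkd1: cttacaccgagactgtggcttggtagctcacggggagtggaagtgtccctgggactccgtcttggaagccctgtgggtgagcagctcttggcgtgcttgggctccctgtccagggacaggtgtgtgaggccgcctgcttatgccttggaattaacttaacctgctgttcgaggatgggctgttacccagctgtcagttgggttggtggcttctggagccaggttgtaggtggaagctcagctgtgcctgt
Msx1 holds 2 CCAAT matches, 1 on each strand, whose first bases lie 91 and 54 bases before the start, and no match to the other motifs. The windows of Lef1 and Nkd1 hold no match to any of the motifs, which says only that those letters are not in these windows. Of all 32851 listed windows of this length, 13.8% hold CTTTGA, 14.4% hold CAGATG and 33.8% hold CCAAT.

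The limits removed cells stepwise. Of the 6032 barcodes, 3747 had under 10% of UMIs in haemoglobin genes, 2091 of these had under 0.5% in 5 cardiomyocyte genes, 1410 had under 3 endothelial UMIs, 1086 under 4 epicardial UMIs and 960 under 3 Rgs5 UMIs. Of those, 734 had 5 or more UMIs of Postn, Sox9, Twist1 and Papss2 together, and they split into 317 members, 341 cells of the opposite side (called Inhba-side here) and 76 ties, of which 38 had no UMI of either trio. The split is a range and not a gap: 53 members had an excess of 1 UMI and 50 cells just outside fell short by 1. At the lower mesenchyme limit, 9 members had exactly 5 UMIs and 9 otherwise eligible cells had 4. All 3 defining genes were detected in 31 of the 146 +/+ members and 35 of the 171 F/F members, exactly 2 in 71 and 88, and only 1 in 44 and 48. No Msx1 UMI was found in 45 and 54 members, so the class is named for the side of the split and not for Msx1 detection in each cell.

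Members made up 5.70% of the +/+ barcodes (exact interval 4.83% to 6.67%) and 4.93% of the F/F barcodes (4.23% to 5.70%). Among barcodes outside the erythroid class they were 9.30% (7.91% to 10.8%) and 7.85% (6.76% to 9.07%), and among both mesenchyme sides 45.3% (39.8% to 51.0%) and 50.9% (45.4% to 56.4%). The intervals overlap on all 3 denominators. Dissociation and sorting act on these shares, and their part in them was not tested. Members had a median of 12189 UMIs in +/+ and 13760 in F/F, against 13369 and 13403 over all barcodes. No doublet caller was run. Barcode sequences occurring in both libraries numbered 18, of which 2 belonged to members. The targeted transcript does not check the labels here: Hand2os1, listed under its older name Gm28063, had 1 UMI among the +/+ members, 0 in all other +/+ barcodes, 0 among the F/F members and 9 in the other F/F barcodes. The genotypes of both libraries are therefore given as labelled, and every direction below rests on those labels.

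The label was checked against its markers, and all 6 were detected in members of both libraries. Levels are CPM, the UMIs of a gene summed over a class and scaled to a fixed total of UMIs, and because these cells were chosen by these genes the values are a description. Msx1 stood at 256 CPM in +/+ members and 201 in F/F members, against 18.8 and 11.51 on the Inhba-side. The class with the next Msx1 level was the endothelial class, at 73.9 and 59.9 CPM, and epicardial, cardiomyocyte and erythroid cells held 3.07 CPM or less. Car3 was at 210 and 308 CPM against 51.7 and 43.6, and Htra1 at 190 and 156 against 15.2 and 17.3. Twist1, a basic helix-loop-helix factor of mesenchyme, was at 616 and 325 CPM in members and 336 and 199 on the Inhba-side. Sox9, the factor of cushion and cartilage progenitors, did not separate the sides: 485 and 409 CPM in members, 444 and 433 on the Inhba-side. Col9a3, a chain of type IX collagen, was at 156 and 153 CPM against 109 and 106, and this gene was not used by the rule. Twist1 was detected in 96.6% and 93.6% of members, Sox9 in 95.9% and 94.2%, and Col9a3 in 74.7% and 76.0%.

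**Figure D1:**
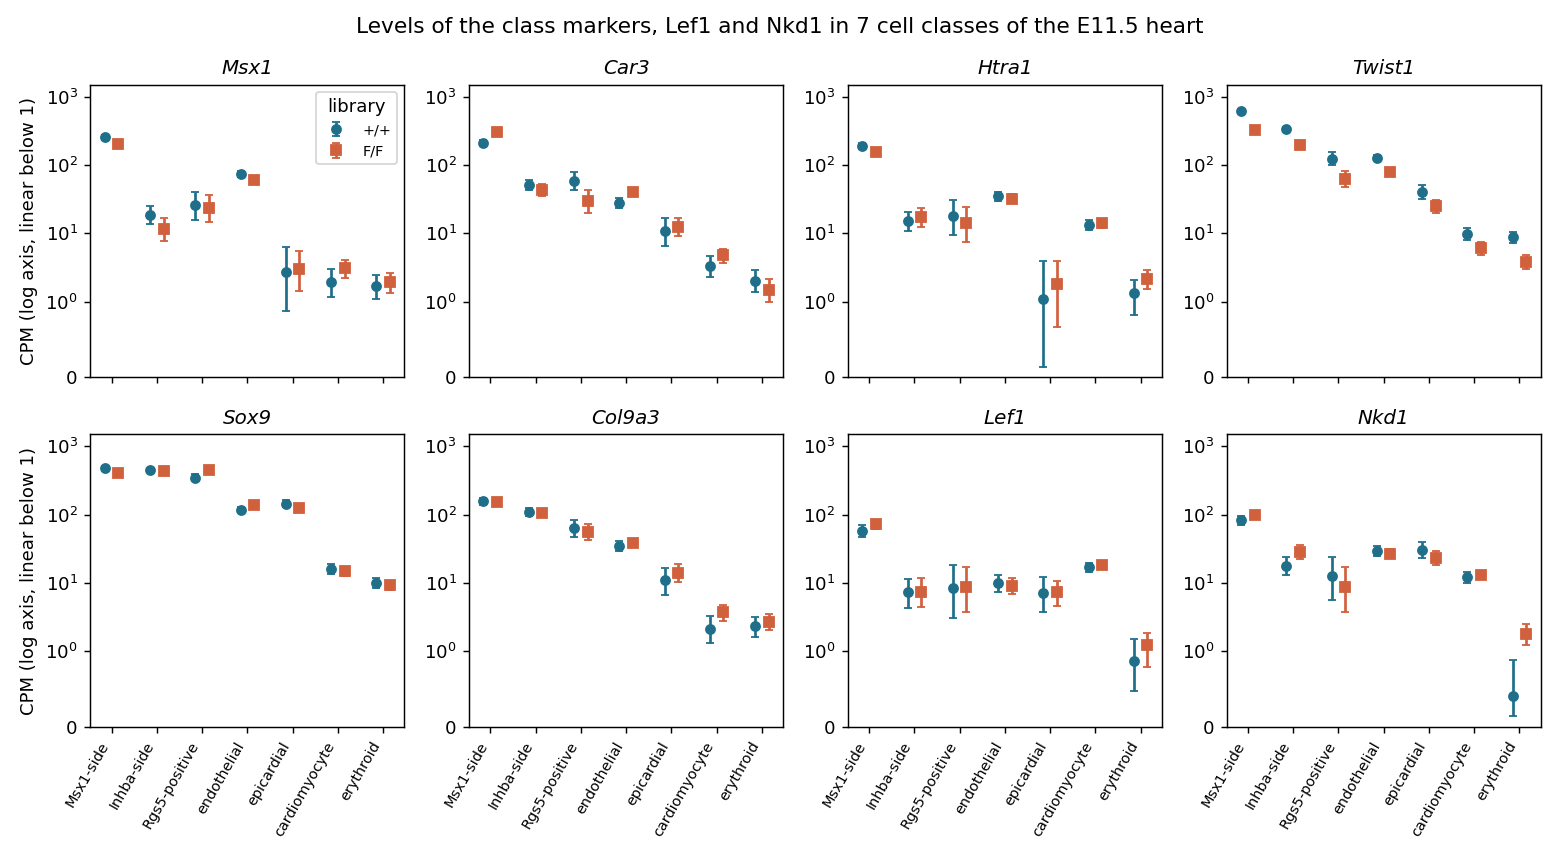
Level of each gene (CPM, log axis, linear below 1) in 7 cell classes of the 2 libraries, with exact 95% counting intervals as bars. Msx1, Car3, Htra1, Lef1 and Nkd1 are highest in the Msx1-side class in both libraries, while Sox9 reaches 444 and 433 CPM on the Inhba-side.

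Markers of other cell types were low but not at 0. The rule had already limited endothelial and epicardial UMIs in members, and the cells it removed at these limits form the endothelial and epicardial classes. The low endothelial and epicardial sums therefore follow in part from the rule. They are a description and not a check of identity. The 7 endothelial markers summed to 117 CPM in +/+ and 102 CPM in F/F members against 823 and 813 CPM in the endothelial class. The 6 epicardial markers summed to 16.7 and 16.2 CPM against 2485 and 2254 in epicardial cells, with Krt7 at 0 in +/+ and Lrrn4 at 0 in F/F members. The 5 immune markers summed to 7.55 and 8.31 CPM, with Ptprc at 0 in both libraries. Erythroid markers summed to 84.1 and 102 CPM against 2101 and 2075 in erythroid cells. Within them Klf1, the erythroid zinc-finger factor, behaved apart: it was at 36.1 and 42.4 CPM in members, 14.4 and 8.64 on the Inhba-side and 196 and 202 in erythroid cells, whereas Alas2, the haem synthesis enzyme, was at 16.7 and 17.9 CPM in members, 23.7 and 20.1 on the Inhba-side and 842 and 793 in erythroid cells. With each cell thinned to 5000 UMIs, 15.0% and 18.9% of members held a Klf1 UMI, against 59.3% and 62.2% of erythroid cells. Unthinned, the Klf1 shares were 29.5% and 38.0% of members.

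Compared with all other barcodes, 403 of the 2539 genes with at least 100 UMIs among the members of each library were at least 2-fold higher in both libraries (15.9%). Among the genes of this comparison that led by fold, by a rule that ranks the smaller of both ratios and leaves the defining genes out, were Gm14226, Col9a3, Cda, Akr1b8, Clmp, Nkd1, Col9a1, Lef1, Hapln1, Igf1 and Hsd17b11. Cda, cytidine deaminase, was at 62.5 and 55.3 CPM against 7.41 and 5.43 in other barcodes. Igf1, insulin-like growth factor 1, was at 389 and 409 CPM against 57.5 and 49.3. The other barcodes include erythroid cells, and the Inhba-side lay closer, with Cda at 42.1 and 40.7 CPM and Igf1 at 260 and 226. Clmp had ratios over the Inhba-side of 1.17 and 1.04, and Hsd17b11 of 1.27 and 1.01. Among these leaders only Gm14226, Nkd1 and Lef1 were at least 2-fold above the Inhba-side in both libraries. The genes whose level over the 7 classes and 2 libraries, 14 points, ran most like that of Msx1 were Mphosph10 (Pearson r of log2(CPM + 1) 0.939), Nipal4 (0.935), Ada (0.922), Car3 (0.912) and St3gal4 (0.910). The 14 points share libraries and class definitions, and Car3 is part of the rule. Ada, adenosine deaminase, was at 38.8 and 39.1 CPM in members, 13.2 and 13.2 on the Inhba-side and 4.23 and 3.69 in other barcodes.

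Against the Inhba-side, 1068 of the tested genes were higher and 1136 lower in members in both libraries, and few passed 2-fold. Of 3182 genes with at least 100 UMIs on 1 side in each library, 7 were at least 2-fold higher in members in both libraries (0.22%), and 39 were at least 2-fold lower (1.23%). These counts include the defining genes and are read for nothing. Of the 7, Msx1, Car3 and Htra1 are defining genes, and the others were Lef1, Nkd1, Gm14226 and Gsta4. Lef1, the DNA-binding partner of beta-catenin in Wnt signalling, was at 57.7 CPM in +/+ and 71.9 CPM in F/F members against 7.22 and 7.40 on the Inhba-side. The CPM ratio was 7.99 (4.82 to 14) and 9.71 (5.97 to 16.8). With cells thinned to 5000 UMIs, 22.1% of +/+ and 29.6% of F/F members held a Lef1 UMI, against 2.31% and 3.66% of Inhba-side cells, 3.50% and 5.09% of endothelial cells and 0.219% and 0.245% of erythroid cells. The unthinned shares in members were 45.2% and 47.4%. Lef1 was also lower in each other class, with cardiomyocytes next at 16.8 and 18.0 CPM. Nkd1, a Dishevelled-binding inhibitor that Wnt signals induce, was at 82.5 and 99.7 CPM against 17.6 and 28.4, a ratio of 4.68 (3.32 to 6.70) and 3.52 (2.68 to 4.66). Axin2, another Wnt-induced feedback inhibitor, was near the counting limit with 25 and 28 UMIs, and its ratios of 2.24 (1.14 to 4.57) and 1.66 (0.88 to 3.24) do not separate the sides in F/F.

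The pathway lists put these genes in context. Of the 34 Notch, Wnt and FGF genes, 7 reached 100 UMIs: Lef1 alone was 2-fold higher in members and Wnt5a alone 2-fold lower, and the list median was -0.65 in +/+ and -0.55 in F/F (log2 ratio), where the median of all 3182 genes was -0.01 in each library. Wnt5a, a ligand that acts largely outside the beta-catenin branch, was at 24.8 and 24.9 CPM in members against 75.8 and 62.1 on the Inhba-side. Of the 38 BMP and TGF-beta genes, 11 reached 100 UMIs, with 1 higher by 2-fold (Htra1, a defining gene) and 1 lower (Inhba, a defining gene), and medians of -0.57 and -0.41. Eng, endoglin, a co-receptor of this family, was at 101 and 105 CPM against 54.5 and 40.7, a ratio of 1.85 (1.47 to 2.32) and 2.57 (2.03 to 3.28). It was highest in the endothelial class, at 253 and 249 CPM. The endothelial marker sum was also higher in members, at 117 and 102 CPM, than on the Inhba-side, at 82.6 and 74.8. The part of endothelial transcripts in the Eng difference was not tested. The ligand gene Tgfb2 was at 107 and 132 CPM against 249 and 231, and the ligand gene Bmp2 at 23.2 and 29.5 against 60.5 and 49.8. The Id genes, targets of BMP signals, were close on both sides: Id3 was at 1683 and 1743 CPM against 1420 and 1558.

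Other transcription factors lay on either side. Of 38 cushion factors listed, 21 reached 100 UMIs, 1 was 2-fold higher in both libraries (Msx1) and 3 were 2-fold lower (Meox1, Prrx1 and Twist2), the list medians being 0.03 and -0.07. Prrx1, a homeobox factor of mesenchyme, was at 45.8 and 44.5 CPM against 103 and 92.1, and Twist2 at 24.8 and 20.4 against 63.7 and 51.8. Gata5 was higher in members, at 62.0 and 55.3 CPM against 36.1 and 34.5. Tbx2, a repressor of chamber genes in the atrioventricular canal, lay below 100 UMIs, with 32 and 42 UMIs in members, and stood at 17.3 and 17.5 CPM against 1.20 and 3.70. Msx2, the close relative of Msx1, was at 17.3 and 27.4 CPM against 7.22 and 9.05. Snai1 did not separate the sides, at 98.7 and 75.2 CPM against 95.4 and 80.6.

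Matrix genes lay on either side. Of 32 cushion and valve matrix genes, 19 reached 100 UMIs, none was 2-fold higher in both libraries and 2 were 2-fold lower (Col1a1 and Tnc), with medians of -0.20 and -0.13. In both libraries 7 were higher and 11 lower in members. Hapln1, the link protein that ties hyaluronan to proteoglycans, was at 943 and 947 CPM in members against 498 and 561, a ratio of 1.89 (1.76 to 2.04) and 1.69 (1.58 to 1.81). Bgn, the small proteoglycan biglycan, was at 243 and 210 CPM against 169 and 160. Col1a1, a chain of type I collagen, was at 111 and 75.2 CPM against 234 and 176, and Postn, periostin, at 409 and 367 against 705 and 637, although Postn counts towards the mesenchyme limit on both sides. Of 19 cartilage-type matrix genes 4 reached 100 UMIs, 2 higher and 2 lower in both libraries: Col9a1 was at 120 and 95.2 CPM against 92.6 and 72.0, and Col2a1, type II collagen, at 21.0 and 26.2 against 77.0 and 63.7.

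Several contractile genes were lower in members. Of the 13 smooth muscle and mural genes, 4 reached 100 UMIs and 3 were at least 2-fold lower in members in both libraries (Acta2, Tagln and Cnn1). Their listed sum, all 13 genes, was 834 and 1015 CPM in members, 2789 and 2454 on the Inhba-side and 3791 and 4325 in Rgs5-positive cells, and the defining smooth muscle gene Myh11 was at 0 in members of both libraries. Tagln, the actin-binding protein transgelin, was at 292 and 318 CPM against 1268 and 1144, a ratio of 0.23 (0.21 to 0.25) and 0.28 (0.26 to 0.30). Cnn1, calponin, was at 34.0 and 36.2 CPM against 166 and 131. Outside the list, Hspb1, a small heat shock protein of muscle cells, was at 88.4 and 96.0 CPM against 344 and 419, and Tpm2, a tropomyosin, at 70.6 and 67.3 against 285 and 232. Crabp1, a retinoic acid binding protein listed with the neural crest genes, was at 32.9 and 29.1 CPM against 91.0 and 82.7. The Rgs5 limit bears on this contrast: Rgs5-positive cells, which it removes, held 529 and 405 CPM of the Inhba-side trio and 103 and 68.1 CPM of the Msx1-side trio, and its part in the result was not tested.

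**Figure D2:**
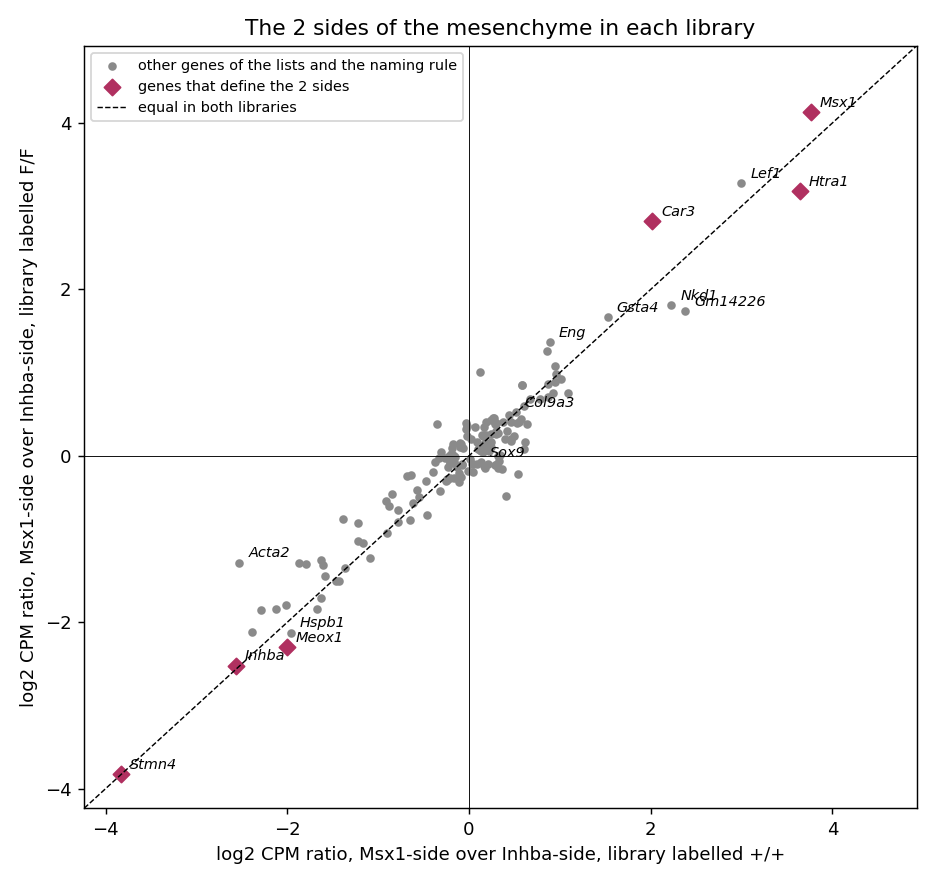
Each point is a gene of the lists or the naming rule (168 genes), placed by its log2 CPM ratio of Msx1-side over Inhba-side in the library labelled +/+ (x) and labelled F/F (y); diamonds are the genes that define the sides and the dashed line marks equal ratios. Lef1 and Nkd1 lie beside the defining genes at the upper right, and Acta2 lies off the line because its ratio was 0.17 in +/+ and 0.41 in F/F.

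Between the libraries, 8 of 2539 genes were at least 1.5-fold higher in F/F than in +/+ members (0.315%) and 37 were lower by the same factor (1.46%). Xist, the transcript of the inactive X chromosome in female cells, is 1 of the 8, at 587 and 930 CPM in members, 420 and 796 on the Inhba-side and 254 and 390 in erythroid cells. The part of the sex mix of the pooled embryos in the other differences was not tested. Many of these differences were not limited to the class. Of the 37 lower genes, 31 had the same direction in all 6 other classes, erythroid cells included, and of the 8 higher genes 4 did. Snhg9, a small nucleolar RNA host gene, was at 200 CPM in +/+ and 54.4 in F/F members, and at 244 and 55.7 in erythroid cells. Naa15, an acetyltransferase subunit, was at 195 and 61.9 CPM in members, and the mitochondrial transcript mt-Atp8 at 156 and 46.5. Twist1, a marker of the class, was among them: its ratio was 0.53 (0.48 to 0.58) in members, 0.59 (0.53 to 0.67) on the Inhba-side, and its level was 8.74 and 3.86 CPM in erythroid cells, where it is not a gene of the cell type. Cardiomyocyte genes were higher in F/F members. Of 12 listed, 5 reached 100 UMIs and 4 were past 1.5-fold higher in F/F members, among them Myl7, the atrial myosin light chain, at 81.9 and 202 CPM in members and 199 and 330 CPM in erythroid cells. In the cardiomyocytes themselves the ratios were 0.93 for Actc1, 0.93 for Tnnt2 and 0.97 for Myl2, but 1.12 for Myl7 and 1.10 for Myl4. In Rgs5-positive cells Actc1 and Tnnt2 were at 0.85, but Myl7 was at 2.08, Myl4 at 2.40 and Myl2 at 2.44. The 8 narrower cardiomyocyte markers summed to 446 and 928 CPM in members, 803 and 1288 on the Inhba-side and 748 and 1235 in erythroid cells. The part of this shared signal in the members' differences was not tested.

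Hand2, the cardiac basic helix-loop-helix factor beside the deleted locus, was at 87.3 CPM in +/+ and 131 CPM in F/F members, a ratio of 1.5 (1.24 to 1.82). The Inhba-side gave 103 and 159 CPM, a ratio of 1.54 (1.32 to 1.82), and endothelial cells 83.8 and 177 CPM. Rgs5-positive cells went the other way, at 181 and 143 CPM, and erythroid cells held 3.90 and 8.45. With cells thinned to 5000 UMIs, 32.1% (24.5% to 40.6%) of +/+ and 47.9% (40.2% to 55.7%) of F/F members held a Hand2 UMI, against 1.53% and 3.02% of erythroid cells. Unthinned, these shares were 61.6% and 74.9% in members. Erythroid cells had median depths of 11210 and 11795 UMIs. The thinned share on the Inhba-side was 45.1% and 45.7%, which does not follow its CPM, so no order is read from the shares. Of the genes around Hand2, Sap30 was at 52.3 and 51.1 CPM in members and Cep44 at 26.4 and 22.9, and their intervals include a ratio of 1 (0.74 to 1.29 and 0.58 to 1.30). Hmgb2, the chromatin protein gene near Hand2, was at 1482 and 1383 CPM.

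Most mitotic genes had lower values in F/F members, and how this differs from other classes was not tested. Of 16 G2 and mitosis genes, 15 reached 100 UMIs, 14 were lower in F/F members and 3 were past 1.5-fold (Top2a, Ube2c and Nusap1), with a median log2 ratio of -0.40 against 0.01 for all 2539 genes. The list median was -0.01 on the Inhba-side and 0.00 in all other barcodes. Summed over the list, the level was 2573 CPM in +/+ and 1943 CPM in F/F members, a ratio of 0.76 (0.73 to 0.79), beside 2058 and 2111 CPM on the Inhba-side, 1948 and 1928 in endothelial cells, 1968 and 1764 in epicardial cells, 1530 and 1789 in Rgs5-positive cells, 1209 and 1356 in cardiomyocytes and 1339 and 1346 in erythroid cells. The epicardial sum was thus lower in F/F as well. Ube2c, the ubiquitin-conjugating enzyme of mitotic exit, was at 479 and 317 CPM in members, but at 360 and 444 on the Inhba-side, 337 and 396 in endothelial cells and 294 and 367 in cardiomyocytes. Top2a, topoisomerase II alpha, was at 325 and 205 CPM in members and 247 and 179 on the Inhba-side, so it was lower on both sides. Cdc20, an activator of the anaphase-promoting complex, was at 155 and 111 CPM in members and 120 and 124 on the Inhba-side. Genes of S phase did not share the direction: of 16 listed, 13 reached 100 UMIs, 10 were higher in F/F members and 3 lower, none past 1.5-fold, with a median of 0.15. Rrm2, a ribonucleotide reductase subunit, was at 166 and 196 CPM and Tyms, thymidylate synthase, at 173 and 196. With 1 library per genotype, the embryo pool and the genotype cannot be told apart.

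Further genes showed a CPM difference in members that the Inhba-side did not share. Acta2, smooth muscle alpha-actin, was at 112 and 220 CPM in members, a ratio of 1.97 (1.68 to 2.33), and at 644 and 536 on the Inhba-side, a ratio of 0.83 (0.77 to 0.90). Rgs5-positive cells gave 953 and 1385 CPM and erythroid cells 82.0 and 89.9. With cells thinned to 5000 UMIs, 21.4% and 37.3% of members held an Acta2 UMI, but so did 14.2% and 25.2% of erythroid cells. The thinned share was also higher in F/F on the Inhba-side, at 60.7% and 70.1%, and in endothelial cells, at 20.3% and 33.2%. On the Inhba-side the Acta2 share thus does not follow its CPM, and the contrast between the sides holds for CPM only. Snai2, the zinc-finger repressor of the mesenchymal transition, was at 54.4 and 80.2 CPM in members, a ratio of 1.47 (1.15 to 1.89), and at 50.1 and 39.9 on the Inhba-side, a ratio of 0.80 (0.60 to 1.05). Car3 was at 210 and 308 CPM in members, a ratio of 1.47 (1.30 to 1.66), but it takes part in choosing them. Hapln1 was level between libraries, with a ratio of 1 (0.94 to 1.07), as were Vcan, versican, at 1 (0.92 to 1.08) and Col9a3 at 0.98 (0.84 to 1.15). Of 32 matrix genes, 16 reached 100 UMIs, 3 were higher and 13 lower in F/F members, none past 1.5-fold. Of all 2539 genes, 1310 were higher and 1229 lower. Of 38 cushion factors, 17 reached 100 UMIs, with 4 higher, 13 lower and 1 past 1.5-fold lower (Twist1).

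**Figure D3:**
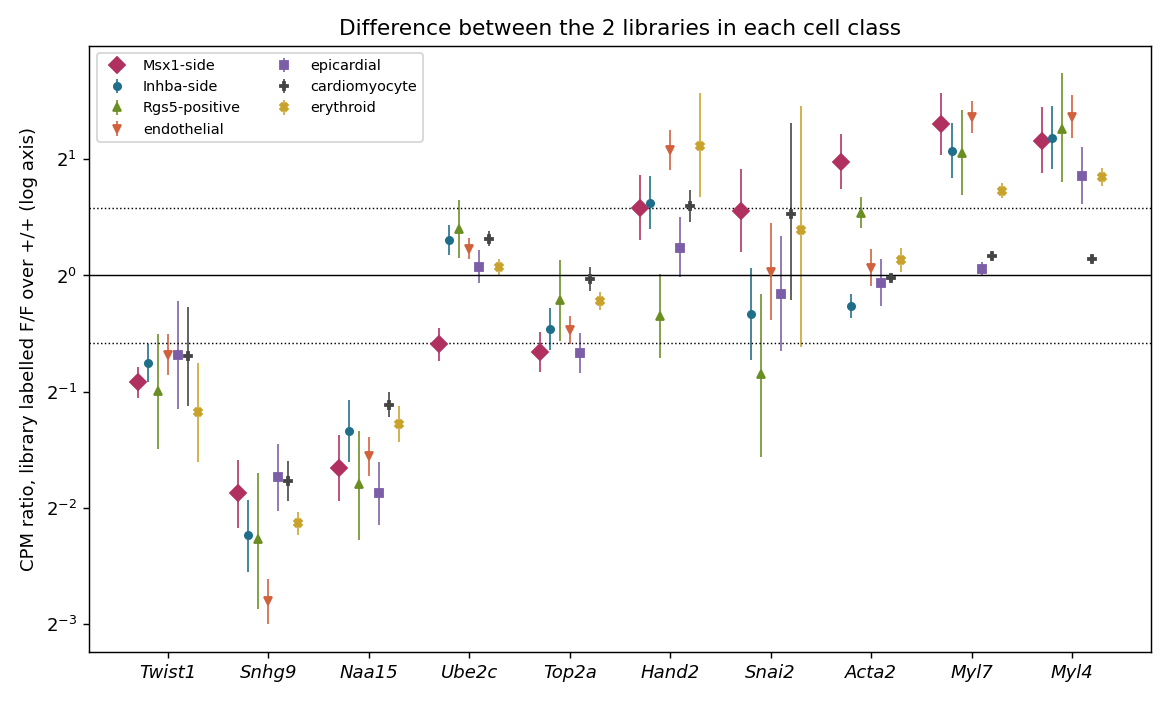
CPM ratio of the library labelled F/F over the library labelled +/+ (log axis) for 10 genes in 7 cell classes, with exact 95% counting intervals and dotted lines at 1.5-fold either way. Snhg9, Naa15 and Twist1 are low in each class, while Ube2c is at 0.66 in Msx1-side cells and at 1.23 on the Inhba-side.

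The bulk hearts gave no called difference in the class markers. These values are FPKM, fragment counts scaled by transcript length and library total, from whole hearts, in which fewer cells of a type and less RNA per cell cannot be told apart, and their control is F/+ and not +/+. Nothing in the labels says that the 3 samples of a group came from separate animals, so p-values measure only the spread between these samples, and the depth behind them is unknown. By limma on log2(FPKM + 1), 1 of 11491 genes passed an adjusted p of 0.05 (0.0087%), and 502 had an unadjusted p under 0.05 (4.37%). The called gene, Mir6236, is no member of the lists and was named after its value was seen. Msx1 was at 7.07, 17.0 and 4.69 FPKM in F/+ hearts and 6.58, 7.15 and 5.73 in F/F hearts. The F/F values lie within the F/+ range, and F/+ replicate 2 is the high one. The limma log2 difference of Msx1 was -0.33 (SE 0.38, adjusted p 0.999), and it was 0.14 without that replicate.

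Twist1 showed the same library: 27.5, 90.2 and 29.9 FPKM in F/+ hearts against 34.5, 20.1 and 28.7 in F/F hearts. Its limma log2 difference was -0.62 (SE 0.40, adjusted p 0.999), with overlapping groups, and it was -0.07 without F/+ replicate 2. F/+ replicate 2 held the highest value of the 6 hearts for 16 of 37 tested cushion factors (43.2%), among them Prrx1 at 17.6 FPKM where the next highest was 2.94, beside 21.7% of all tested genes. The part of that heart in the Twist1 and Msx1 values was not tested. Car3 was at 3.52, 6.28 and 1.17 FPKM in F/+ and 10.9, 0.51 and 4.19 in F/F hearts, a range within F/F that spans the F/+ values. Htra1 was at 6.09, 5.72 and 7.62 FPKM in F/+ and 13.9, 2.33 and 7.86 in F/F hearts, again with F/F replicate 1 highest and F/F replicate 2 lowest. Col9a3 was at 3.56, 2.13 and 1.57 FPKM against 6.81, 1.59 and 4.63, with the same order within F/F. Inhba, the gene of the opposite side, had that order too, at 7.37, 0.73 and 3.34 FPKM in F/F hearts and 3.09, 3.53 and 1.74 in F/+ hearts. Sox9 was even across hearts, at 22.2, 18.9 and 16.6 FPKM in F/+ and 23.1, 18.8 and 18.3 in F/F.

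Lef1 was at 13.1, 16.2 and 6.48 FPKM in F/+ and 11.2, 7.30 and 7.41 in F/F hearts, a limma log2 difference of -0.37 (SE 0.32, adjusted p 0.999), which was -0.12 without F/+ replicate 2 and -0.72 without F/+ replicate 3. Nkd1 was at 7.52, 11.9 and 8.31 FPKM against 11.1, 6.17 and 6.27, and the groups of both genes overlap. Hand2 was at 58.6, 77.5 and 86.7 FPKM in F/+ and 75.9, 79.1 and 69.2 in F/F hearts. Its limma log2 difference was 0.03 (SE 0.18, adjusted p 0.999). Between the single-cell libraries its log2 CPM ratio was 0.58 in members and 0.66 in all other barcodes. The whole-heart difference lay below both by more than its SE, so a difference of that size was not seen. The bulk control is F/+ and not +/+, and its part in this was not tested. Ube2c was at 201, 219 and 255 FPKM against 227, 239 and 228. Of the 15 G2 and mitosis genes tested 13 were lower in F/F hearts, beside 5475 of all 11491 tested genes. The list median was -0.07 where all genes had 0.02. None of the 15 was called or had an unadjusted limma p under 0.05. Tagln was at 249, 303 and 264 FPKM in F/+ and 370, 411 and 314 in F/F hearts. The Tagln groups do not overlap, but its limma adjusted p was 0.999, and cardiomyocytes also hold Tagln, at 934 and 877 CPM in the single-cell libraries.

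**Figure D4:**
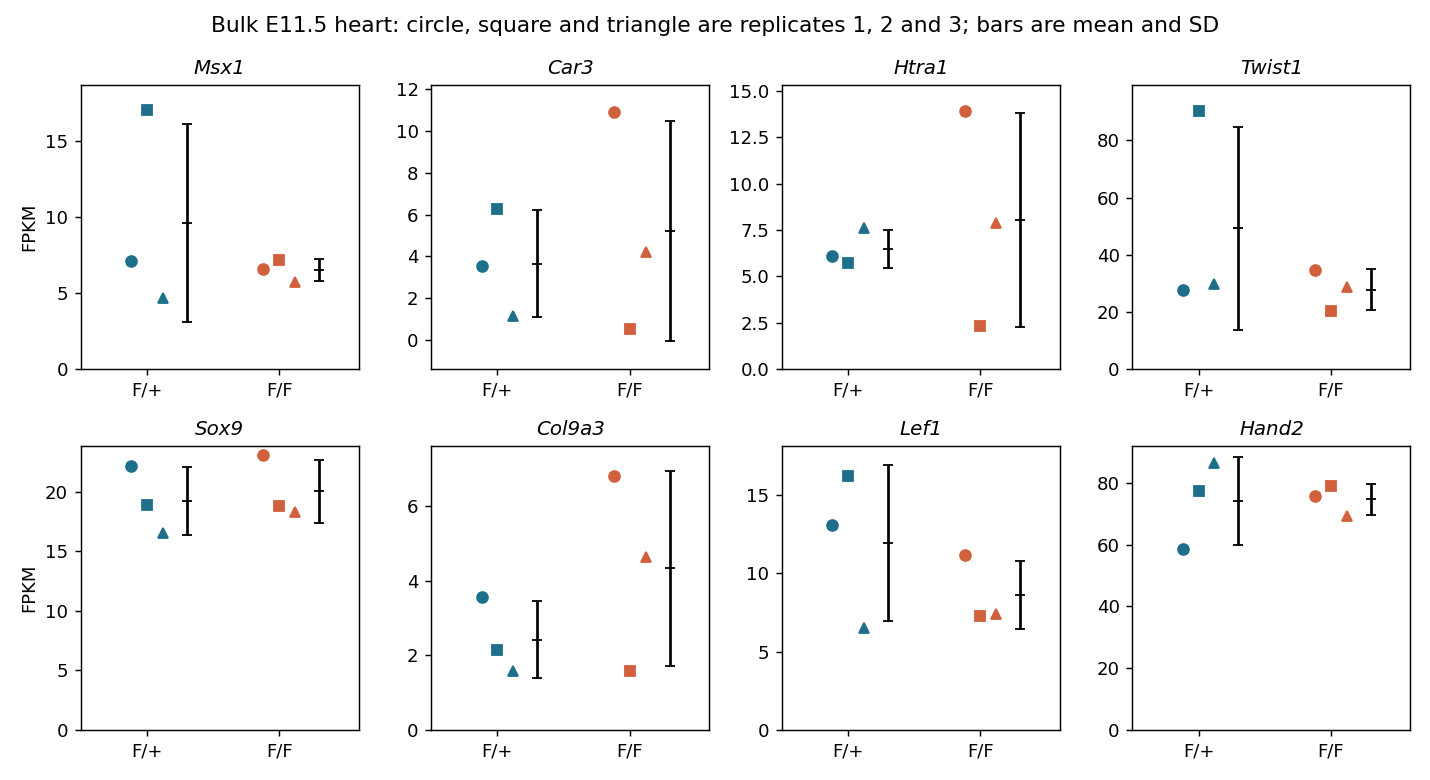
FPKM of 8 genes in 3 F/+ and 3 F/F whole E11.5 hearts, with the symbol giving the replicate and the bar the mean and SD. F/+ replicate 2 is high for Msx1 (17.0 FPKM) and Twist1 (90.2 FPKM), and the groups overlap for all 8 genes.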

How the data were processed

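The deposited single-cell table holds UMI counts per gene and barcode, made with Cell Ranger and mm10 per the submitters' processing notes. Barcodes were assigned to libraries by their suffix, and duplicate symbols were summed (19010 genes). UMIs were summed over the cells of a class and library and scaled to CPM. Intervals are exact 95% Poisson, conditional binomial (CPM ratios) or Clopper-Pearson (shares) and cover counting error only. Shares were computed after thinning each cell to 5000 UMIs, leaving out 6 +/+ and 2 F/F members below it. Genes were called past a ratio of 2 between classes or 1.5 between libraries, with at least 100 UMIs. The deposited bulk table was read as FPKM from its values, since its unit is not given in the sources used here. CASAVA and TopHat2 2.0.11 with mm9 are listed in the submitters' processing notes. Genes with a mean FPKM of 1 or more in the 6 E11.5 hearts were tested with limma 3.58.1 (R 4.3.3) on log2(FPKM + 1), F/F against F/+, with Benjamini-Hochberg adjustment over 11491 genes. The fit was tested on simulated data. Python 3.11.15 with numpy, pandas and scipy was used elsewhere.

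Members, gene lists and the naming rule were chosen with earlier results of these data known. Named were the markers and defining genes, list members with the largest ratios, the 12 genes that led over other barcodes (1 of which is not reported here), the 10 highest and 10 lowest against the Inhba-side and between libraries (without haemoglobin, Xist and Y-linked genes), genes around Hand2 and the 5 most like Msx1. Axin2, Nkd1 in the bulk hearts and genes set beside them as contrasts were added after their values were seen. Alternatives covered the class limits, CPM scaling, cells of high UMI number, thinning, and, for the bulk fit, pseudocount, filter, scaling, replicate block and leaving out each heart.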

Additional observations from a re-analysis of the deposited data

Results flagged for a closer look

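Among the genes of the lists, 6 had a CPM ratio of F/F over +/+ on opposite sides of 1 in members and Inhba-side cells, with counting intervals that exclude 1 on both sides. Acta2 had a ratio of 1.97 in members and 0.83 on the Inhba-side, although the thinned share of cells with an Acta2 UMI was higher in F/F on both sides. Ube2c had 0.66 in members and 1.23 on the Inhba-side, and Ccnb1, cyclin B1, had 0.72 and 1.23. Birc5, survivin, had 0.90 and 1.18. Hmgb2 had 0.93 and 1.11, and Id1 had 0.91 and 1.09. With 1 library per genotype, the difference between these ratios was not tested, and the counting intervals do not hold the spread between embryos.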

How the results depend on the processing

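With the limits applied after thinning cells to 5000 UMIs, members were 136 in +/+ and 132 in F/F (100 and 101 of them members before), and their shares of the barcodes left, after 137 and 163 under 5000 UMIs were dropped, were 5.61% and 3.99%. With an excess of 3 UMIs or more over the Inhba-side genes, shares were 4.17% in +/+ and 3.63% in F/F, and 12 genes instead of 7 were 2-fold higher than on the Inhba-side. Without thinning, the shares with a Hand2 UMI were 61.6% and 74.9%, and those with a Lef1 UMI 45.2% and 47.4%. Of 68 single-gene CPM ratios under these alternatives none changed direction, and 9 left the counting interval of the reported value. The 1.5-fold counts between libraries stayed within 1.5 times of 8 and 37 under each class limit, scaling and cell filter run.

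In the bulk hearts, replicate numbers did not pair the samples (correlations of deviations -0.04, -0.02 and 0.08), and the fit with a replicate block called 2 genes instead of 1. Leaving out each heart in turn called 1 to 2 genes, with 2 when F/+ replicate 3 was left out. The log2 difference turned sign with a pseudocount of 0.1 for Car3 (-0.0095) and Htra1 (-0.012). Leaving out 1 heart at a time gave ranges that cross 0: -0.69 to 0.14 for Msx1 (above 0 without the second F/+ heart), -0.57 to 0.92 for Car3, -0.45 to 0.63 for Htra1, -0.041 to 0.16 for Sox9 and -0.13 to 0.15 for Hand2. The range was -0.91 to -0.07 for Twist1 and -0.72 to -0.12 for Lef1. The cause was not tested.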
